A study of Mus musculus with 12 samples.

Results

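The type I interferon response genes are 44 classical interferon-stimulated genes, taken by symbol from a list of named genes with the guanylate-binding proteins (GBPs) and immunity-related GTPases left out. All 44 were found among the 43626 gene lines of the count files, and all 44 passed the filter on low counts that left 14308 genes for testing. Their mRNA levels were followed in bone marrow–derived macrophages (BMDMs) of mice in 12 RNA-Seq libraries, 3 for each of 4 conditions. The BMDMs received PBS, the milk oligosaccharide 3′-sialyllactose (3′SL, labelled HMO, 100 μg/mL), LPS (10 ng/mL), or LPS together with 3′SL (labelled LPS+HMO), each for 6 hours. Doses and times come from the study's text, since the treatment note in the labels describes injections into mice. The labels name no genotype, donor or age for these cultures, so that p-values measure only the spread between these libraries. The library numbers run through the conditions in the order PBS, HMO, LPS, LPS+HMO, which gives 3 runs of 4 consecutive numbers with 1 library of each condition, called library sets 1, 2 and 3 here. What the sets stand for is not labelled. Values for 3 libraries are always listed in the order of sets 1, 2 and 3.

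Type I interferons, IFN-β and the IFN-α family, bind the receptor IFNAR1/IFNAR2 on the cell that makes them and on its neighbours. The kinases JAK1 and TYK2 then switch on the factor ISGF3, which contains STAT2 and IRF9, and ISGF3 binds the interferon-stimulated response element (ISRE) in the promoters of interferon-stimulated genes. In macrophages, LPS reaches this loop from TLR4 taken up into endosomes, through the adaptors TRAM and TRIF, the kinase TBK1 and the factor IRF3, which switches on Ifnb1. The products of the target genes sense foreign RNA and DNA, block viral replication, and feed back on the pathway.

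Between 20411741 and 26851890 reads per library were counted on genes. Levels are given as CPM, reads of a gene per 1000000 counted reads, on library sizes scaled by TMM, a method that evens out the bulk of the genes between libraries, and 1 CPM stood for 16.3 to 34.8 reads. Libraries of the same set resembled each other after the condition means were removed, as the processing notes give. Checked against the macrophage label, 7 macrophage markers (Adgre1, Cd68, Csf1r, Itgam, Mertk, Fcgr1 and Lyz2) were all detected, and their summed level ranged from 17417 to 27615 CPM. The summed level of 8 neutrophil markers was 111 to 434 CPM with PBS, 122 to 242 with 3′SL, 172 to 793 with LPS, and from 173 to 717 CPM with both agents, and it was highest in set 3 in every condition. Ly6g, the surface marker that defines mouse neutrophils, was at 0.08 to 1.18 CPM. The 5 plasmacytoid dendritic cell markers summed to 71.9 to 83.9 CPM without LPS and 174 to 320 CPM with LPS, nearly all of it from Tcf4, while the defining marker Siglech was at 0 to 0.61 CPM. The summed level of 6 stromal markers was 525 to 611 CPM in set 1 and 22.2 to 96.1 CPM in sets 2 and 3. The T and NK cell markers summed to at most 1.28 CPM, with Cd3e at 0 in all libraries, the B cell markers to at most 3.59 CPM and the dendritic cell markers to at most 15.8 CPM. In these bulk libraries, fewer cells of a type and less RNA per cell cannot be told apart. The part of these other cells in the results was not tested.

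LPS raised all 44 genes. At an adjusted p below 0.05 in edgeR's quasi-likelihood test and a change of at least 1.5-fold, 44 of 44 were higher with LPS than with PBS, where 18.3% of all genes tested were called higher and 20.2% lower, and 0 of the 44 were lower. The median log2 fold change was 3.84, against −0.061 over all genes tested, and it ranged from 1.42 for Irf9 to 7.44 for Rsad2. In 36 genes the rise was at least 8-fold, in 21 at least 16-fold, and in 1, Irf9, under 4-fold. For each of the 44 genes, all 3 LPS libraries lay above all 3 PBS libraries. The share of counted reads that fell on the 44 genes was 0.250 to 0.521% with PBS, 0.288 to 0.652% with 3′SL, 5.64 to 7.15% with LPS, and 5.61 to 7.22% when both were given. Scaling to total counts moved the median of all genes tested to −0.71 and that of the 44 genes to 3.18, and all 44 were still called higher.

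**Figure D1:**
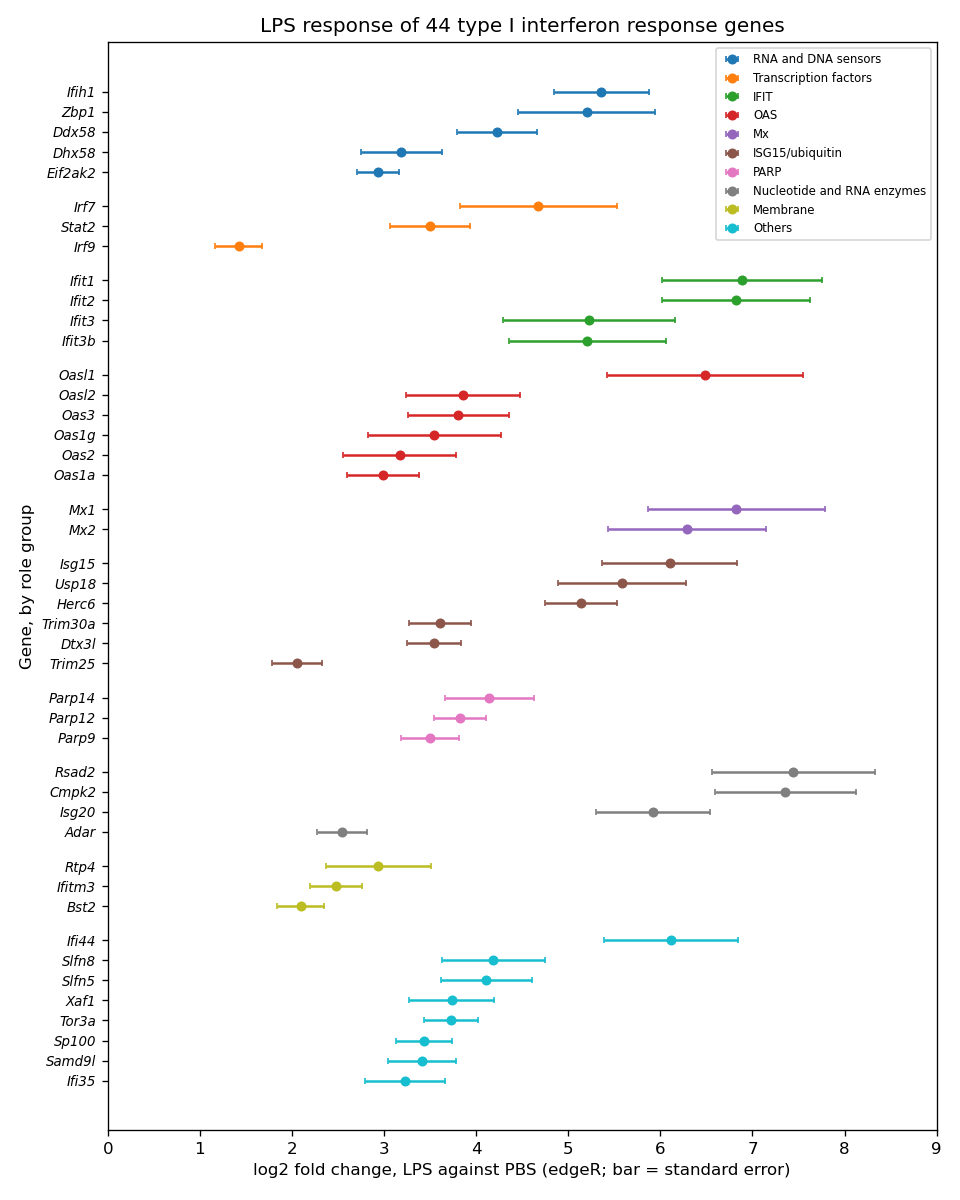
The points give the log2 fold change of each of the 44 genes with LPS against PBS (x axis, 3 libraries a condition), and the bars are standard errors. Genes are grouped by role and ordered by size within a group, and all 44 lie between 1.42 (Irf9) and 7.44 (Rsad2), to the right of 0.

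The ISRE was looked for in the promoters, as the motif by which these genes are known. RefSeq promoter windows (assembly GRCm38.p6, 250 bases before to 50 bases after a gene's start) were matched by symbol for 34 of the 44 genes, and those of Dhx58, Mx1, Mx2, Oas2, Parp9, Parp14, Rtp4, Tor3a, Usp18 and Zbp1 were not matched. The ISRE core GAAANNGAAA, read on both strands, stood in a window of 17 of the 34 genes (50%), against 3.99% of the 27025 genes with a window. The GAS motif, TTCNNNGAA, which reads the same on both strands, stood in 8 of 34 (23.5%), against 9.55% of all. The κB letters GGGA and TTTCC with 1 free base between them, read on both strands, stood in 0 of 34, against 0.466% of all. With a share this low over all genes, 0 of 34 does not show that the 34 genes lack κB sites. In 2 of the 43 member windows an ISRE core and a GAS match overlapped. The 17 genes with an ISRE core had a median log2 fold change with LPS of 4.11 (2.10 to 7.44), and the 17 without one had a median of 3.82 (1.42 to 7.36). A match is a run of letters, and these windows hold only part of each gene's control region.

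Promoter windows of 5 genes are shown, chosen after their values were seen: Rsad2, Ifit1 and Isg15 from the genes that rose most, Bst2 from those that rose least, and Cmpk2, the neighbour of Rsad2, which rose as much and has no ISRE core in its window. They are written 5′ to 3′ along the gene, with ISRE core letters in capitals. The Rsad2 window is chr12:26456403-26456702 on the minus strand, with its match from base −120 counted from the gene's start, and the Cmpk2 window is chr12:26468965-26469264 on the plus strand. The Ifit1 window is chr19:34640639-34640938 on the plus strand, with matches from −104 and −85. The Isg15 window is chr4:156200769-156201068 on the minus strand, with 3 overlapping matches from −78, −72 and −66. The Bst2 window is chr8:71537423-71537722 on the minus strand, with overlapping matches from −130 and −124.
Rsad2: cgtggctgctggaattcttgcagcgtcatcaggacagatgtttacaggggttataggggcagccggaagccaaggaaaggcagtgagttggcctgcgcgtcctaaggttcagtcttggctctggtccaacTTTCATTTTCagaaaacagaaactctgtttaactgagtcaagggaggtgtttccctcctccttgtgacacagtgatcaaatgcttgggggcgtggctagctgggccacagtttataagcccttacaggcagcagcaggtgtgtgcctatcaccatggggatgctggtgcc
Cmpk2: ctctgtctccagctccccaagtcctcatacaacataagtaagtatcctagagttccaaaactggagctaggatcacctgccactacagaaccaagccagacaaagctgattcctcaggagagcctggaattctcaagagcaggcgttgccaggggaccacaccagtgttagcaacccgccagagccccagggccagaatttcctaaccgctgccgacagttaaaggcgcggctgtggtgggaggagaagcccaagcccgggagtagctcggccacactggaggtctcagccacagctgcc
Ifit1: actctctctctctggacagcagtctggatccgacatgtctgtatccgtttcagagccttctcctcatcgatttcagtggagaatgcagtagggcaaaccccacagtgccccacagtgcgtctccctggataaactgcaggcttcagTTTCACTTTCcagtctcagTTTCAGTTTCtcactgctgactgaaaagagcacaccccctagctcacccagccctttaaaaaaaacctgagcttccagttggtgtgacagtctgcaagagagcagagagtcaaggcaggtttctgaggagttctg
Isg15: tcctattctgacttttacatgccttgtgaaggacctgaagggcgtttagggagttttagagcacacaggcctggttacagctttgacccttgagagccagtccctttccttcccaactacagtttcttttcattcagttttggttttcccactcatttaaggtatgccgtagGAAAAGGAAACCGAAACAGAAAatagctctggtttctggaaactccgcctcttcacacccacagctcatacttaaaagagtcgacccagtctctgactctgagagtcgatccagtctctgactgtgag
Bst2: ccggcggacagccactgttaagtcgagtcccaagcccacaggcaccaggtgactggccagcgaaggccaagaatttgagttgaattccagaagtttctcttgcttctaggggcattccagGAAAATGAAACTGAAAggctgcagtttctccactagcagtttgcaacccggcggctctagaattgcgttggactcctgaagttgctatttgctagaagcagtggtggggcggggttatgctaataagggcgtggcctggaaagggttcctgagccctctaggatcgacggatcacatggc
In Isg15 and Bst2 the overlapping matches make 1 run of repeated GAAA letters, and in Ifit1 and Rsad2 the letters lie on the other strand. The run in Isg15 holds 3 matches and that in Bst2 holds 2, further from the start. In Bst2 a GAS match from −136 overlaps the run. The log2 fold changes with LPS were 6.10 for Isg15 and 2.10 for Bst2.

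Among the sensors of foreign nucleic acid, 5 of 5 rose (median log2 fold change 4.23; SE, here and below, is the standard error of the log2 fold change). Ifih1 (chromosome 2), which encodes the RNA sensor MDA5, had the largest change of the group (log2 fold change 5.36, SE 0.51, adjusted p in edgeR 1.35e-05). Its levels were 34.0, 39.9 and 76.4 CPM with PBS, 42.2, 40.6 and 105 with 3′SL, 1609, 1949.9 and 2610.2 with LPS, and 1200.5, 1393 and 2251 with LPS + 3′SL. The smallest change was that of Eif2ak2, the RNA-activated kinase PKR that stops translation (log2 fold change 2.94, SE 0.23, adjusted p in edgeR 3.69e-06). It had 71.3, 84.5 and 107 CPM with PBS, 79.2, 82.7 and 129 with 3′SL, 611, 632 and 767 with LPS, and 528, 571 and 695 with LPS + 3′SL. In both genes the lowest LPS library was above the highest library without LPS. Zbp1, a sensor of Z-form nucleic acid, changed by 5.2 on the log2 scale. Ddx58, which encodes RIG-I, changed by 4.23, and Dhx58, which encodes the related protein LGP2, by 3.19.

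The 3 transcription factors of the loop in the list also rose. Irf7, the factor that amplifies interferon production, had 24.1, 36.8 and 126 CPM with PBS, 42.5, 27 and 169 with 3′SL, 1121, 1366 and 2284 with LPS, and 996, 1148 and 2251 with LPS + 3′SL (log2 fold change 4.67, SE 0.85, adjusted p in edgeR 0.00106). Irf9, the DNA-binding partner in ISGF3, had 46.1, 51.7 and 70.5 CPM with PBS, 54.3, 55.5 and 89.8 with 3′SL, 126, 143 and 182 with LPS, and 118, 129 and 186 with LPS + 3′SL (log2 fold change 1.42, SE 0.26, adjusted p in edgeR 0.000999). Its LPS libraries lay above the PBS libraries, but by less than for any other of the 44 genes, and exons of Irf9 overlap Rnf31 on the same strand, so that reads there can be ambiguous. Stat2, another subunit of ISGF3, changed by 3.5 with a standard error of 0.43.

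The IFIT genes, whose products bind viral RNA and lie side by side on chromosome 19, rose in 4 of 4 (median 6.02). Ifit1 had 14.7, 21.6 and 69.6 CPM with PBS, 34.7, 22.3 and 135 with 3′SL, 3307, 3867 and 5360.0 with LPS, and 3219, 3378 and 5186 with LPS + 3′SL (log2 fold change 6.89, SE 0.87, adjusted p in edgeR 8.95e-05). Ifit3b showed 3.10, 5.54 and 21.2 CPM with PBS, 6.66, 5.17 and 28.6 with 3′SL, 304, 302 and 494 with LPS, and 311, 303 and 496 with LPS + 3′SL (log2 fold change 5.21, SE 0.85, adjusted p in edgeR 0.000517). Both rose in every library set, and set 3 was the highest of the 3 libraries in each condition. Ifit2 changed by 6.82 and Ifit3 by 5.23. Ifit3 and Ifit3b are near-identical copies: 51.2% of the 50-base words of Ifit3 transcripts occur in Ifit3b. Reads that matched several places were not counted on a gene, so the levels of both genes leave such reads out.

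The OAS genes encode enzymes that make 2′-5′-linked oligoadenylate from ATP when they meet double-stranded RNA, together with OAS-like proteins, and lie in 2 groups on chromosome 5. All 6 rose (median 3.68). The OAS-like gene Oasl1 had 5.37, 6.77 and 23.7 CPM with PBS, 7.88, 7 and 70.9 with 3′SL, 773, 985 and 1463 with LPS, and 943, 1092 and 2144 with LPS + 3′SL (log2 fold change 6.49, SE 1.06, adjusted p in edgeR 0.000526). Oas1a had 39.2, 46.1 and 71.4 CPM with PBS, 42.8, 37.2 and 83.7 with 3′SL, 319, 376 and 549 with LPS, and 274, 314 and 500.5 with LPS + 3′SL (log2 fold change 2.99, SE 0.39, adjusted p in edgeR 0.000104). The LPS libraries of both lay above their PBS libraries, and in Oasl1 those of LPS + 3′SL lay higher still in each set. The changes of Oasl2, Oas3, Oas1g and Oas2 were 3.86, 3.81, 3.55 and 3.17. Oas1a shares 57.6% of its 50-base words with Oas1g, so the levels of these 2 genes also leave out reads that matched both.

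Mx1 and Mx2, dynamin-like GTPases that trap viral components, rose by 6.83 and 6.29 on the log2 scale. Levels of Mx1 were 11.5, 16.1 and 62.3 CPM with PBS, 16.4, 16.5 and 90.7 with 3′SL, 2407, 3027 and 4768 with LPS, and 2162, 2652 and 4453 with LPS + 3′SL (log2 fold change 6.83, SE 0.96, adjusted p in edgeR 0.000189). Those of Mx2 were 2.73, 3.61 and 12.4 CPM with PBS, 4.80, 4.57 and 24.5 with 3′SL, 343, 452 and 673 with LPS, and 337, 394 and 648 with LPS + 3′SL (log2 fold change 6.29, SE 0.86, adjusted p in edgeR 0.000151). The highest PBS library exceeded the lowest by 5.41-fold in Mx1 and 4.55-fold in Mx2, and the highest LPS library exceeded the lowest by 1.98-fold and 1.96-fold.

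Of the genes around ISG15, a ubiquitin-like protein joined to other proteins, 6 of 6 rose (median 4.37). Isg15 itself had 8.41, 12.9 and 32.4 CPM with PBS, 12.2, 9.66 and 45.8 with 3′SL, 989.8, 1154 and 1544 with LPS, and 920.4, 998 and 1445 with LPS + 3′SL (log2 fold change 6.10, SE 0.73, adjusted p in edgeR 6.39e-05). Trim25, a ubiquitin ligase that acts on RIG-I, had 135, 142 and 164 CPM with PBS, 157, 157 and 251 with 3′SL, 477, 551 and 805 with LPS, and 458, 478 and 749 with LPS + 3′SL (log2 fold change 2.05, SE 0.27, adjusted p in edgeR 0.000118). Trim25 was expressed in every library without LPS, and its 3 PBS libraries differed by 1.22-fold at most. Usp18, the protease that removes ISG15 and restrains the receptor, changed by 5.58. Herc6, the mouse ISG15 ligase, changed by 5.14, the ubiquitin ligase Trim30a by 3.61, and Dtx3l, the partner of PARP9, by 3.54.

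The 3 PARP genes, whose family transfers ADP-ribose or binds it, had a median of 3.82. Parp14 had 150.2, 191 and 363 CPM with PBS, 221, 201 and 579 with 3′SL, 3462, 4139 and 4853 with LPS, and 3383, 3660.0 and 5058 with LPS + 3′SL (log2 fold change 4.14, SE 0.48, adjusted p in edgeR 5.14e-05). Parp9 had 36.1, 41.2 and 60.4 CPM with PBS, 46.0, 48.0 and 92.8 with 3′SL, 444, 488 and 625 with LPS, and 403, 441 and 576 with LPS + 3′SL (log2 fold change 3.5, SE 0.32, adjusted p in edgeR 9.82e-06). The change of Parp12 lay between them at 3.82. Exons of Parp9 overlap those of Dtx3l on the other strand of chromosome 16, and the strand setting used for counting is not given in the sources used here. If strand was ignored, reads that fall on both genes were left out as ambiguous. Exons of Adar, Dhx58, Eif2ak2, Ifi35, Irf7, Oasl1, Slfn5 and Usp18 also overlap a gene on the other strand. Besides Irf9, exons of Herc6, Parp14, Rtp4 and Sp100 overlap another gene on the same strand.

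The enzymes of nucleotides and RNA held the largest changes (median of 4 genes 6.64). Rsad2, or viperin, makes a chain-terminating nucleotide, and Cmpk2, a nucleotide kinase of mitochondria, lies next to it on chromosome 12 in the opposite orientation. Rsad2 had 40.1, 55.6 and 190.3 CPM with PBS, 81.5, 60.2 and 306 with 3′SL, 13492, 14876 and 21409 with LPS, and 12668, 13094 and 22046 with LPS + 3′SL (log2 fold change 7.44, SE 0.88, adjusted p in edgeR 5.85e-05). Cmpk2 changed by 7.36 with a standard error of 0.77, a difference from Rsad2 far inside both errors. Isg20, an exonuclease, changed by 5.92 from 1.15, 1.54 and 3.44 CPM with PBS. Adar, which edits adenosine in double-stranded RNA, had 76.6, 82.7 and 117 CPM with PBS, 97.2, 93.4 and 165 with 3′SL, 449, 528 and 633 with LPS, and 452, 487 and 656 with LPS + 3′SL (log2 fold change 2.54, SE 0.27, adjusted p in edgeR 2.56e-05).

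The membrane group, proteins that act at or pass through membranes, had the lowest median (2.48), and 3 of 3 rose. Rtp4, a chaperone of receptors, had 34.8, 45.9 and 116 CPM with PBS, 54.1, 49.2 and 166 with 3′SL, 408, 449 and 655 with LPS, and 388, 428 and 641 with LPS + 3′SL (log2 fold change 2.94, SE 0.57, adjusted p in edgeR 0.00149). Bst2, or tetherin, which holds budding virus at the cell surface, had 100.3, 112 and 155 CPM with PBS, 112, 89.9 and 145 with 3′SL, 442, 462 and 665 with LPS, and 373, 424 and 578 with LPS + 3′SL (log2 fold change 2.10, SE 0.26, adjusted p in edgeR 7.13e-05). Ifitm3, which blocks fusion of virus in endosomes, changed by 2.48 and was the most abundant of the 44 genes per length with PBS, at 258 CPM per kilobase of exon (220 to 325).

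The 8 genes of other roles all rose (median 3.73). Ifi44 had 2.64, 5.50 and 10.6 CPM with PBS, 5.84, 3.18 and 16.5 with 3′SL, 342, 336 and 615 with LPS, and 251, 291 and 484 with LPS + 3′SL (log2 fold change 6.12, SE 0.73, adjusted p in edgeR 5.88e-05). Ifi35 had 17.6, 18.2 and 33.9 CPM with PBS, 16, 15.9 and 40.1 with 3′SL, 164, 202 and 288 with LPS, and 143, 182 and 253 with LPS + 3′SL (log2 fold change 3.23, SE 0.43, adjusted p in edgeR 0.000138). The Schlafen genes Slfn8 and Slfn5 changed by 4.19 and 4.11. Xaf1, a promoter of apoptosis, changed by 3.73, the AAA ATPase gene Tor3a by 3.73, the nuclear body gene Sp100 by 3.43, and Samd9l, which restrains translation, by 3.41.

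**Figure D2:**
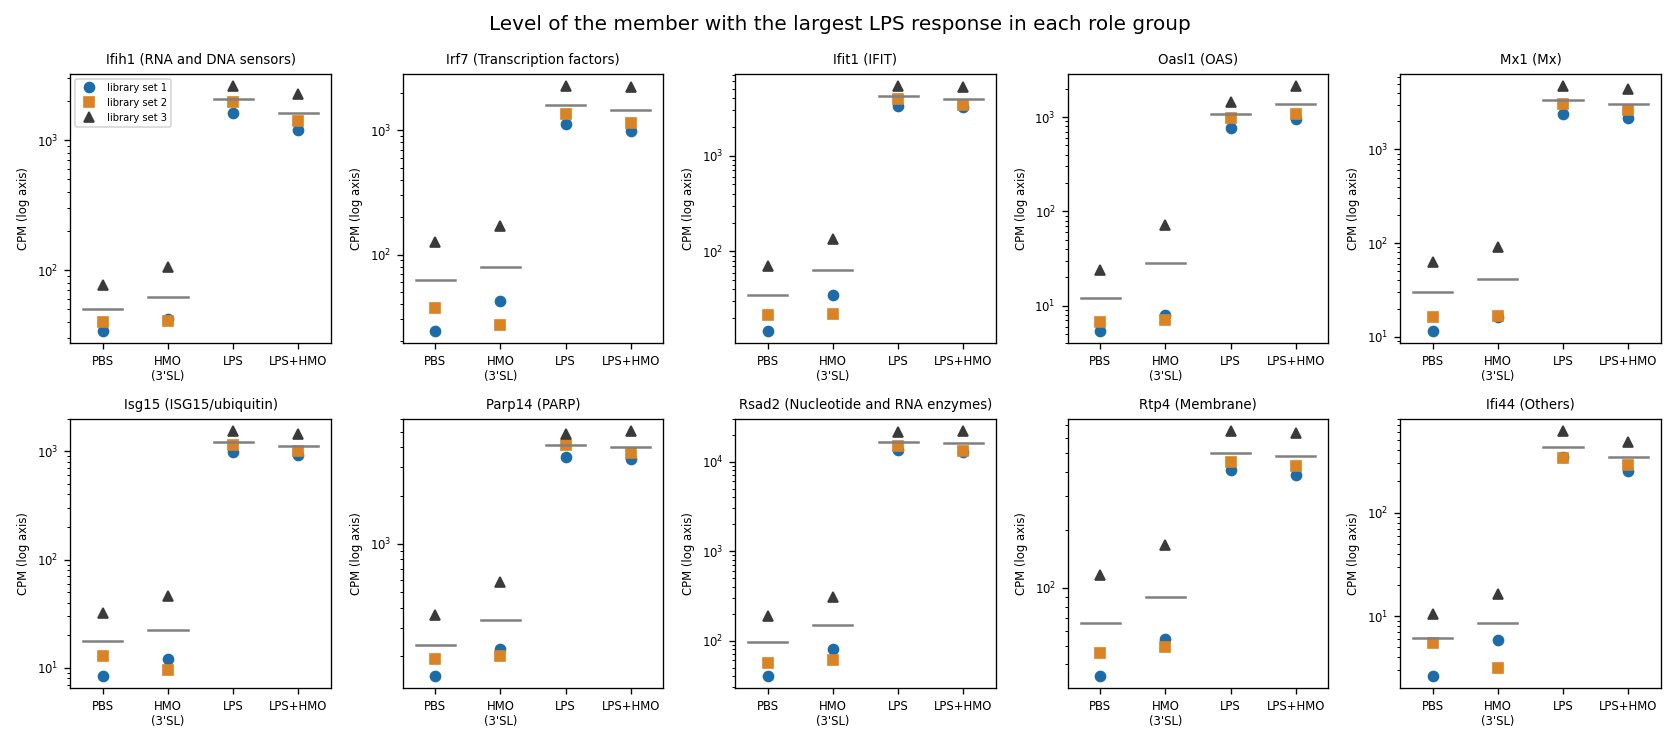
Each panel gives the level in CPM (log axis) of the member with the largest LPS response in a role group, for the 4 conditions on the x axis. Points are single libraries, with a marker for each library set, and grey lines are means of 3 libraries. In all 10 panels the LPS and LPS + 3′SL libraries lie above the PBS and 3′SL libraries, and set 3 (triangles) is the highest in each condition.

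The order of the genes changed with LPS. Per kilobase of exon, the highest mean levels with LPS were those of Rsad2 (3827 CPM per kilobase, 3112 to 4939), Ifit2 (2749, 2274 to 3537), Cmpk2 (1885, 1634 to 2237), Isg15 (1626, 1309 to 2043) and Ifit1 (1573, 1245 to 2018). The ranges of neighbours in this order overlapped, except for Ifit2 and Cmpk2. With PBS the same genes ranked 13, 9, 24, 10 and 22 of the 44, and Rsad2 stood at 22.0 CPM per kilobase (9.24 to 43.9). Irf9 was the lowest with LPS, at 27.9 CPM per kilobase (23.4 to 33.8), and Xaf1 the next lowest at 57.3 (46.6 to 73.0), with ranges that did not overlap.

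Genes of the pathway that feeds these targets were read from a separate list of 32. Of these, 6 IFN-α genes (Ifna1, Ifna2, Ifna4, Ifna5, Ifna6 and Ifna9) had 0 counted reads in all 12 libraries. IFN-α genes are much alike, and reads that matched several places were not counted on a gene. The other 26 were tested, and with LPS 16 were called higher and 1, the repressor gene Irf2bp2 (−1.05), lower. Ifnb1, which encodes IFN-β, had 0 reads in each PBS and each 3′SL library. With LPS it had 40, 54 and 42 reads (1.95, 2.61 and 2.58 CPM), and with LPS + 3′SL 27, 55 and 65 reads (1.31, 2.53 and 3.48 CPM). Against a floor of 3 reads in each library without LPS, the lowest LPS library was at least 18.6-fold higher than PBS, and the lowest LPS + 3′SL library at least 11-fold higher than 3′SL alone. The levels of the LPS and LPS + 3′SL libraries overlapped.

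Both receptor genes rose, Ifnar1 with log2 fold change 1.65, SE 0.15, adjusted p in edgeR 1.18e-05, and Ifnar2 with log2 fold change 1.49, SE 0.28, adjusted p in edgeR 0.00138. Ifnar1 went from 160.1, 183 and 209 CPM with PBS to 523, 542 and 670.3 CPM with LPS, and Ifnar2 from 68.8, 77.6 and 91.9 to 167, 176 and 328 CPM. Irf1, a factor that also binds ISRE letters, had 37.4, 44.5 and 54.7 CPM with PBS and 448, 587 and 458 CPM with LPS (log2 fold change 3.45, SE 0.18, adjusted p in edgeR 4.58e-07). Irf3, the factor that starts Ifnb1, had 32.7, 29.9 and 37.5 CPM with PBS and 22.9, 25.7 and 30.3 CPM with LPS, and did not pass (log2 fold change −0.35, SE 0.13, adjusted p in edgeR 0.0548). Scaling to total counts called it lower, in a fit where the median of all genes tested was itself −0.71. Socs1, an inhibitor of the JAK kinases, had 0.545, 0.0701 and 0.742 CPM with PBS and 36.9, 40.3 and 76.9 CPM with LPS (log2 fold change 6.79, SE 0.70, adjusted p in edgeR 2.18e-05). In the same test, 8 of 10 kinases and factors, 2 of 7 adaptors and TLR4 partners and 3 of 6 brakes were called higher, where 18.3% of all genes tested were, and the median of the 26 genes was 1.27.

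With 3′SL in the medium, LPS raised the same 44 genes. In LPS + 3′SL against 3′SL alone, 44 of 44 were called higher, where 14.3% of all genes tested were, at a median log2 change of 3.49 and in a range from 1.12 for Irf9 to 6.90 for Cmpk2. Without library set 2, 5 of the 44 (Irf7, Irf9, Oas1g, Oas2 and Rtp4) missed the threshold in this comparison, with adjusted p-values in edgeR between 0.0503 and 0.112.

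Whether 3′SL alone changed these genes was asked in the 3′SL and PBS libraries. The log2 fold change was above 0 in 42 of the 44 genes (50.2% of all genes tested), with a median of 0.36 against 0.0013 over all genes tested, and no gene was called: 0 of 44 in edgeR, where 0% of all genes tested were called. At an unadjusted p below 0.05 there were 0 of 44, where 10.1% of all genes passed, and 0 of 44 with the fold minimum added, where 4.33% did. DESeq2 called 0 of 44 (0.615% of all genes). With the library sets as a block in edgeR, which takes out the differences between sets, 0 of 44 were called, where 2.84% of all genes were. For all 44 genes the libraries of the 2 conditions overlapped, while of all genes tested 9.02% lay wholly higher with 3′SL and 8.53% wholly lower. Without the block, differences between sets count as spread, and that spread was larger in the 44 genes. The highest PBS library exceeded the lowest by a median of 2.50-fold, against 1.34-fold over all genes tested. The counts without the block and the overlaps are thus not like for like with the shares of all genes. The lowest adjusted p in edgeR was 0.590.

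The median change was 0.45 in set 1, −0.023 in set 2 and 0.49 in set 3, and 42, 20 and 42 of the 44 genes lay above 0. Set 2 thus gave no common direction. With the library sets as a block the median over all libraries was 0.33. In fits with no block, it moved when 1 library of set 3, the set with the highest levels, was left out. It was 0.82 without the PBS library of set 3 and −0.37 without its 3′SL library. Each such fit keeps the high level of set 3 in only 1 of the 2 conditions.

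The 3 highest log2 fold changes with 3′SL were those of Oasl1, Ifit1 and Mx2. Oasl1 had 5.37, 6.77 and 23.7 CPM with PBS and 7.88, 7 and 70.9 CPM with 3′SL (log2 fold change 1.26, SE 0.86, adjusted p in edgeR 0.672). Set by set it changed by 0.55, 0.048 and 1.58. Ifit1 had 14.7, 21.6 and 69.6 and 34.7, 22.3 and 135 CPM (log2 fold change 0.86, SE 0.68, adjusted p in edgeR 0.732), or 1.24, 0.046 and 0.95 set by set. Mx2 had 2.73, 3.61 and 12.4 and 4.80, 4.57 and 24.5 CPM (log2 fold change 0.85, SE 0.71, adjusted p in edgeR 0.744), or 0.80, 0.33 and 0.98 set by set. In each of them only the 3′SL library of set 3 lay above the highest PBS library.

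The 3 lowest were those of Tor3a, Bst2 and Ifitm3. Tor3a had 58.4, 66.9 and 97.0 CPM with PBS and 55.3, 55.3 and 95.2 CPM with 3′SL (log2 fold change −0.11, SE 0.26, adjusted p in edgeR 0.939). Bst2 had 100.3, 112 and 155 and 112, 89.9 and 145 CPM (log2 fold change −0.082, SE 0.25, adjusted p in edgeR 0.956), and Ifitm3 149, 156 and 220.2 and 165, 150.4 and 227 CPM (log2 fold change 0.046, SE 0.27, adjusted p in edgeR 0.983). In all 3 genes the ranges of both conditions overlapped. With the block, 2 of the 44 genes had an adjusted p below 0.05 but under 1.5-fold, where 5.88% of all genes tested had such a p at any fold: Dtx3l (log2 fold change 0.47, adjusted p in edgeR 0.0224) and Oas2 (0.43, adjusted p 0.0488). Dtx3l was higher with 3′SL in each set (0.43, 0.35 and 0.61), as was Oas2 (0.35, 0.16 and 0.74).

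**Figure D3:**
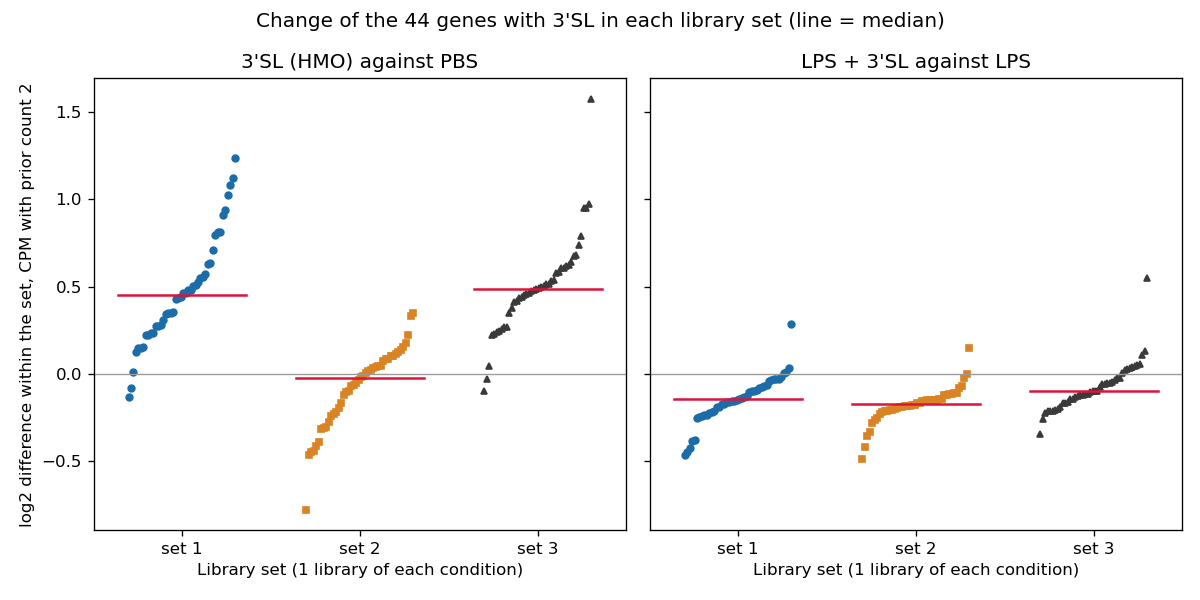
The y axis gives the log2 difference of each of the 44 genes between the 2 libraries of a library set, without LPS on the left and with LPS on the right. Each point is a gene, ordered by size within a set on the x axis, and the red line is the median: 0.45, −0.023 and 0.49 without LPS, and −0.14, −0.17 and −0.097 with LPS.

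Adding 3′SL to LPS was compared with LPS alone, the setting in which the study looked for an effect of 3′SL on the TLR4 response. The log2 fold change was below 0 in 40 of the 44 genes (51.2% of all genes tested), with a median of −0.13 against −0.0079 over all genes tested. In fits with no block, this median moved when 1 library of set 3, the set with the highest levels, was left out. It was 0.10 without the LPS library of set 3 and −0.38 without its LPS + 3′SL library. Each such fit keeps the high level of set 3 in only 1 of the 2 conditions. With the library sets as a block the median was −0.14. No gene was called: 0 of 44 in edgeR (0% of all genes tested), 0 of 44 at an unadjusted p below 0.05 (6.95% of all genes), 0 of 44 at that p with the fold minimum (2.81%), 0 of 44 in DESeq2 (0.79%) and 0 of 44 with the library sets as a block (1.45%, or 2.43% with no fold minimum). The libraries of LPS and LPS + 3′SL overlapped for all 44 genes, where 6.24% of all genes tested lay wholly higher and 6.51% wholly lower. The highest LPS library exceeded the lowest by a median of 1.62-fold in the 44 genes, against 1.41-fold over all genes tested. The counts without the block and the overlaps are thus not like for like with the shares of all genes here either. The shifts were small in each set, with medians of −0.14, −0.17 and −0.097. With total counts the median of the 44 genes was −0.046 and that of all genes 0.082.

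Ifih1, Ifi44 and Slfn8 had the lowest values. Ifih1 had 1609, 1949.9 and 2610.2 CPM with LPS and 1200.5, 1393 and 2251 CPM with LPS + 3′SL (log2 fold change −0.35, SE 0.43, adjusted p in edgeR 1), or −0.42, −0.49 and −0.21 set by set. Ifi44 had 342, 336 and 615 and 251, 291 and 484 CPM (log2 fold change −0.33, SE 0.58, adjusted p in edgeR 1), or −0.45, −0.21 and −0.35 set by set. Slfn8 had 919, 1007 and 1612 and 706, 787 and 1347 CPM (log2 fold change −0.32, SE 0.49, adjusted p in edgeR 1), or −0.38, −0.36 and −0.26 set by set. In every set these 3 genes were lower with 3′SL, while the LPS + 3′SL library of set 3 lay above the LPS libraries of sets 1 and 2.

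The highest values were those of Oasl1, Dhx58 and Ifit3b. Oasl1 had 773, 985 and 1463 CPM with LPS and 943, 1092 and 2144 CPM with LPS + 3′SL (log2 fold change 0.38, SE 0.84, adjusted p in edgeR 1), and it was higher with 3′SL in each set (0.29, 0.15 and 0.55). Dhx58 had 292, 352 and 507 and 294, 327 and 555 CPM (log2 fold change 0.03, SE 0.41, adjusted p in edgeR 1), and Ifit3b had 304, 302 and 494 and 311, 303 and 496 CPM (log2 fold change 0.012, SE 0.71, adjusted p in edgeR 1). Oasl1 thus had the highest change with 3′SL of the 44 genes both with and without LPS, and neither passed. In the same comparison, with values side by side and no test of the difference, the 16 GBP and immunity-related GTPase genes had a median of −0.17, and 18 NF-κB-dependent inflammatory genes had a median of −1.40 with 18 of 18 below 0. Of those 18, 0 were called in edgeR, 13 had an unadjusted p below 0.05, 4 were called in DESeq2 and 12 with the block. That list holds genes the study named for this change, such as Il6, Tnf and Edn1, so its median is not independent evidence of a direction.

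The interaction, the LPS response with 3′SL minus that without, was below 0 in 44 of the 44 genes (50.5% of all genes tested), with a median of −0.47 against −0.0051 over all genes tested, and a range from −0.95 for Ifit1 to −0.038 for Tor3a. It shares its libraries with the comparisons above, and its counts without the block are likewise not like for like with the shares of all genes. No gene was called: 0 of 44 in edgeR (0% of all genes), at an unadjusted p below 0.05 (6.09%, or 3.96% with the fold minimum), in DESeq2 (0.308%) and with the block (1.55%, or 1.81% with no fold minimum), where the lowest adjusted p of the 44 was 0.0615. Within the sets the median was −0.61, −0.11 and −0.59, and 0, 15 and 0 of the 44 genes lay above 0. With total counts the median was −0.28, against 0.17 over all genes tested. With the library sets as a block the median was −0.46. In fits with no block it was −1.02 without the PBS library of set 3, and 0.20 without the 3′SL library of that set. Each of these fits lacks the set with the highest levels in 1 condition.

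Levels of all 44 genes differed between the library sets. In edgeR's F test of the library sets, with conditions in the model, 44 of 44 genes were called, where 36.8% of all genes tested were. In 44 of 44 genes set 3 was the highest of the 3 sets in every condition, which held for 16.8% of all genes tested, and with total counts it held for 42 of the 44. The highest PBS library exceeded the lowest by 1.22-fold (Trim25) to 6.97-fold (Ifit3), with a median of 2.50-fold, against 1.34-fold over all genes tested. The summed level of the neutrophil markers was highest in set 3 as well, and its part in this result was not tested.

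Oas2, Oas1g and Sp100 had the largest F for the library sets, at 133, 73.7 and 59.6. The RNA sensor enzyme Oas2 had 30.7, 40.7 and 80.1 CPM with PBS, 39.2, 45.4 and 133 with 3′SL, 281, 379 and 702 with LPS, and 257, 326 and 675 with LPS + 3′SL (adjusted p in edgeR 1.67e-06). Oas1g had 9.90, 13.5 and 32.4 CPM with PBS, 12.0, 11.5 and 50 with 3′SL, 140.4, 170.4 and 339.8 with LPS, and 102, 141 and 293 with LPS + 3′SL (adjusted p in edgeR 1.75e-05). Sp100 had 61.8, 72.1 and 96.1 CPM with PBS, 62.2, 67.0 and 112 with 3′SL, 669, 763 and 1051 with LPS, and 569, 658 and 909 with LPS + 3′SL (adjusted p in edgeR 3.76e-05). In all 3 genes set 3 stood above the other sets whatever the treatment, and in Oas2 and Sp100 set 1 was the lowest in every condition.

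With LPS the sets lay closer together. The highest LPS library exceeded the lowest by a median of 1.62-fold over the 44 genes, against 2.50-fold with PBS, and the spread was larger with PBS than with LPS in 40 of the 44, as it was in 44.1% of all genes tested. The LPS change, averaged over the comparisons with and without 3′SL, was smallest in set 3 in 40 of 44 genes, where 36% of all genes tested had their smallest change there, and its median was 3.94, 4.06 and 3.42 in the 3 sets. The test of library set by LPS takes the libraries with and without 3′SL as replicates of the LPS response of a set. It thus assumes that 3′SL does not change how the sets differ, which was not tested. The test called 21 of 44 genes, where 7.94% of all genes tested were called. This count of the 44 genes ranged from 4 to 35 when single libraries were left out. It was 4 without the LPS library of set 3, 6 without the LPS + 3′SL library of set 3, 12 without the LPS library of set 2, 13 without the LPS library of set 1, and 35 without the PBS library of set 3.

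Mx1, Mx2 and Ifit3b had the largest F, at 65.7, 49.6 and 35.5. The LPS change of Mx1 was 7.36, 7.43 and 5.94 on the log2 scale in the 3 sets (adjusted p in edgeR 0.000323). That of Mx2 was 6.52, 6.67 and 5.24 (adjusted p in edgeR 0.000708), and that of Ifit3b 6.05, 5.80 and 4.33 (adjusted p in edgeR 0.00156). In each, set 3 started from the highest level without LPS, ended at the highest level with LPS, and covered the smallest distance. Herc6 and Parp12 were among the genes that did not pass, with 4.84, 4.75 and 4.84 for Herc6 and 3.69, 3.66 and 3.55 for Parp12.

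**Figure D4:**
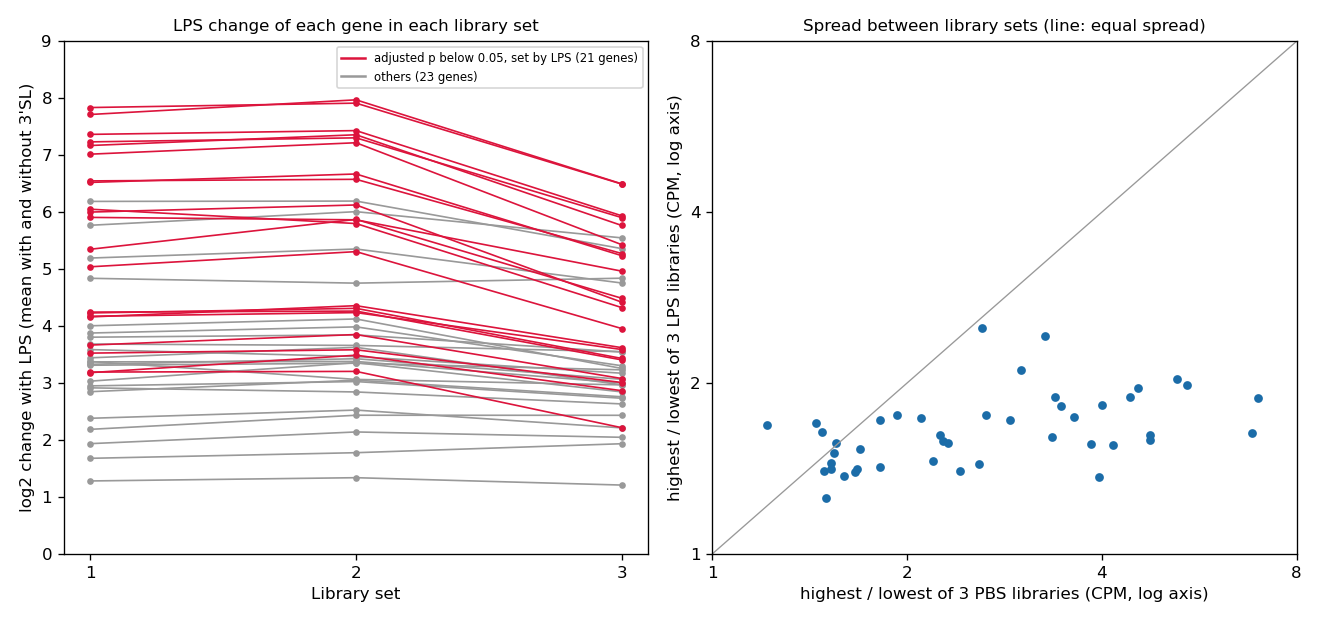
The left panel gives the log2 change with LPS (mean with and without 3′SL) of each of the 44 genes in library sets 1, 2 and 3, in red for the 21 genes called in the test of library set by LPS. The right panel sets the ratio of the highest to the lowest LPS library against the same ratio in the PBS libraries (both log axes), and 40 of 44 points lie below the line of equal spread.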

How the data were processed

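RNA-Seq libraries of BMDMs, 3 each for PBS, HMO (3′SL), LPS and LPS+HMO, were analysed. Stranded libraries were made from polyA-enriched mRNA. The authors deposited raw read counts per Ensembl gene for each library, with no normalization. The submitters' processing notes name FastQC, Trimmomatic, STAR, HTSeq and DESeq2, and the genome build, annotation and strand setting are not given in the sources used here. Of the reads or alignments listed, 33.2 to 37.1% were not on a gene (no gene, several genes, or several places) and stayed out of library sizes.

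Of 43626 gene identifiers, 42462 were matched to GENCODE M21 (GRCm38) for symbols, exon lengths, overlaps and shared 50-base words. Counts were tested with edgeR 4.0.16 (R 4.3.3): filterByExpr by condition, TMM scaling, and the quasi-likelihood F test over all 12 libraries, with Benjamini-Hochberg adjustment over 14308 genes. Calls needed an adjusted p below 0.05 and a change of at least 1.5-fold, and for the library sets the adjusted p alone. Standard errors are the log2 fold change divided by the square root of F. Within-set differences use a prior count of 2. The procedure was tested on simulated counts. Those for LPS + 3′SL against LPS were drawn with no differences between library sets. They thus do not show how well the fit with no block finds a change with 3′SL in these data. DESeq2 1.42.0, other scalings and filters, and the library sets as a replicate block were alternatives.

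The sets rest on the library numbers and not on a stated batch. After condition means were removed, the correlation between libraries of a set averaged 0.596 over all genes (lowest 0.449), and −0.296 between sets. Every pair within a set was thus above 0.1. The main fit of the treatments still had no block, so its standard errors and p-values ignore this pairing. The sets entered only in the within-set differences, the tests of the sets and the alternative fits with a block. Over the 44 genes it averaged 0.530 (lowest 0.0462, below that limit), and −0.216 between sets (highest 0.908). No 2 libraries of a condition agreed within sampling noise (chi-square per gene at least 14.6).

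The counts over the pathway list include 1 gene that is not reported here by name. The genes, lists, motifs and tests were chosen with earlier results of these data known, the library sets included. Values in every library are given for the genes with the largest and smallest LPS change in each role group, the 3 highest and 3 lowest with 3′SL in either setting, and the 3 with the largest F in each set test.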

Additional observations from a re-analysis of the deposited data

Results flagged for a closer look

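The LPS response of 21 of the 44 genes differed between library sets, by edgeR's test of library set by LPS, where 7.94% of all genes tested were called, and without the LPS library of set 3 the count was 4. The test takes the libraries with and without 3′SL as replicates of the LPS response of a set. The F values, each with 2 terms tested, were 65.7 for Mx1, 49.6 for Mx2, 35.5 for Ifit3b, 31.8 for Ifit3 and 29.2 for Rtp4. They were 26.5 for Rsad2, 23 for Cmpk2, 21.7 for Isg15, 20.9 for Ifit1, 20.6 for Ifit2, 20.1 for Zbp1 and 20 for Slfn5. The rest were 18.5 for Oasl1, 17.7 for Slfn8, 16.3 for Parp14, 15.7 for Usp18, 13.3 for Ddx58, 12.4 for Irf7, 10.8 for Stat2, 10.2 for Ifi35 and 9.88 for Xaf1.

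In all 21 the change was smallest in set 3. Examples are Rsad2 (7.84, 7.91 and 6.49, adjusted p in edgeR 0.0039), Irf7 (5.04, 5.31 and 3.96, adjusted p in edgeR 0.0276) and Rtp4 (3.19, 3.21 and 2.22, adjusted p in edgeR 0.00302), given as log2 changes in sets 1, 2 and 3. In these genes the set 3 libraries without LPS were the highest of their conditions: Rsad2 had 40.1, 55.6 and 190.3 CPM with PBS, Irf7 24.1, 36.8 and 126 and Rtp4 34.8, 45.9 and 116. The neutrophil markers summed to 111, 208 and 434 CPM with PBS and to 122, 225 and 242 CPM with 3′SL. With LPS these markers summed to 172, 355 and 793 CPM, and with LPS + 3′SL to 173, 327 and 717 CPM. Their part in the difference was not tested.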

How the results depend on the processing

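The counts of genes called with LPS (44 higher, 0 lower), with LPS + 3′SL against 3′SL (44), with 3′SL in either setting and for the interaction (0 each) and between library sets (44) kept within 1.5 times under every alternative run for them, with 39 the lowest, for LPS + 3′SL against 3′SL without set 2. The 21 genes whose LPS response differed between sets ranged from 4 to 35 when single libraries were left out, and numbered 31 with total counts and 30 with all genes that had at least 1 count. The median log2 fold change with LPS was 3.18 with total counts and 3.30 with total counts and the library set as a replicate block, and ranged from 3.62 to 4.41 without single libraries. That of LPS + 3′SL against LPS was −0.046 and −0.050 in the same 2 fits and ranged from −0.38 to 0.10 without single libraries. With 3′SL alone it ranged from −0.37 to 0.82, for LPS + 3′SL against 3′SL from 3.23 to 4.18, and for the interaction from −1.02 to 0.20. The replicate block changed no call of the 44 genes. The interaction could not be fitted on only the conditions compared. With 3 libraries a condition and no block, the change with 3′SL was within 1 standard error of 0 in 33 of the 44 genes without LPS and in all 44 with LPS.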
